A study of Gallus gallus with 31 samples.

Results

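CELF1, QKI, HNRNPH1 and SSB are 4 genes for proteins that bind RNA and act in splicing, RNA stability or the maturation of small RNAs. They are described here across 31 RNA libraries of chicken fat. Each symbol matched 1 of the 564 genes analysed, under the Entrez numbers 373923 (CELF1), 374204 (QKI), 395157 (HNRNPH1) and 395268 (SSB). The 4 genes were chosen by earlier results of the same FPKM values, with differences between line, depot and trial in view. Their levels, differences and calls are therefore a description of these libraries, and no test is based on them.

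All birds were male chickens of 42 days labelled as controls, and polyA RNA was sequenced from flash-frozen fat of 2 depots, the fat around the heart (here cardiac) and the abdominal fat pad. The birds came from 2 lines, Ross, a commercial broiler, and a line that the labels name only as Illinois, and from trials named Fall 13 and Fall 12. The groups were Ross cardiac fat of Fall 13 and of Fall 12 (4 libraries each), Ross abdominal fat of Fall 13 and of Fall 12 (4 libraries each), Illinois cardiac fat of Fall 13 (8 libraries) and Illinois abdominal fat of Fall 13 (7 libraries). No Illinois library belonged to Fall 12. The labels do not state that libraries of a group came from separate birds, so the spread between libraries may in part be technical.

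An RNA-binding protein recognises short motifs or structures in a transcript and so sets which exons are joined, how long the RNA lasts and how much protein it yields. CELF1 binds GU-rich elements, where it steers alternative splicing and speeds the removal of poly(A) tails and mRNA decay. It is best known from human myotonic dystrophy, in which its protein accumulates in muscle and heart. QKI, a protein with a KH domain, regulates splicing and mRNA stability, and in mice it restrains the heat-producing programme of brown fat. HNRNPH1 binds runs of G in nuclear RNA and regulates exon choice. SSB, the La autoantigen, holds the U-rich ends of transcripts made by RNA polymerase III and protects them while they mature.

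The unit is FPKM, in which fragment numbers are divided by the length of the transcript and by the library total, so that levels can be set side by side between genes. HNRNPH1 was the most abundant of the 4, with a lowest value of 123, a median of 179 and a highest value of 284 FPKM over the 31 libraries. QKI had a median of 38.6 FPKM, with values from 18.2 to 66.3 FPKM. SSB had a median of 32.1 FPKM, with values from 8.39 to 100.2 FPKM. CELF1 was the least abundant, with a median of 12.7 FPKM and values from 0.824 to 18.1 FPKM. The highest value of CELF1 was 21.98 times its lowest, against ratios of 2.30 for HNRNPH1, 3.63 for QKI and 11.9 for SSB. None of the 124 values of these genes stood at the floor of 0.001 FPKM that the table uses.

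**Figure D1:**
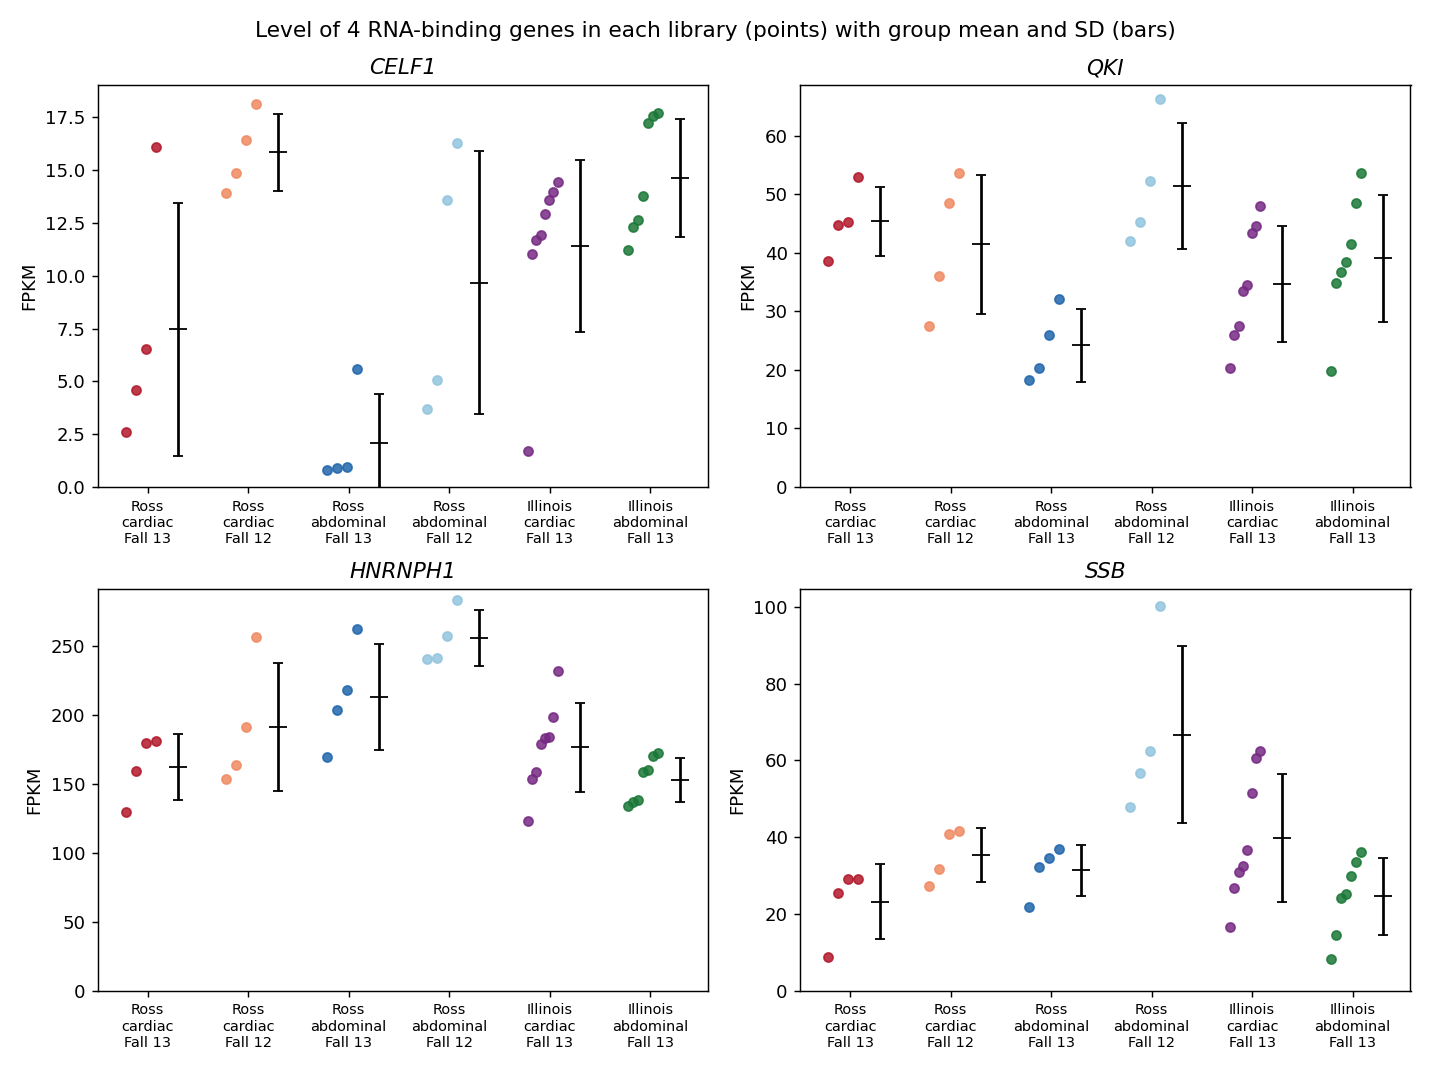
FPKM of CELF1, QKI, HNRNPH1 and SSB (y axes, linear from 0) in each library (points, ordered by value within a group) of 6 groups (x axis), with the group mean and SD as a bar beside the points (cut at 0 for CELF1 in Ross abdominal fat of Fall 13). CELF1 lies below 1 FPKM in 3 of 4 Ross abdominal libraries of Fall 13, and QKI, HNRNPH1 and SSB are highest on average in Ross abdominal fat of Fall 12.

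The libraries differed in ways that bear on these values. The steps between low FPKM values gave a depth relative to the median library of 0.555 to 1.00 in Ross abdominal fat of Fall 13. It was 1.26 to 1.72 in Illinois abdominal fat, with no overlap. Ross abdominal fat of Fall 12 had 0.63 to 0.74, within the range of Fall 13. Ross cardiac fat had 0.702 to 0.973 in Fall 13 and 0.693 to 1.11 in Fall 12, and Illinois cardiac fat had 0.979 to 1.60. Library numbers did not overlap between any groups, so any batch of libraries cannot be told apart from the groups. The heart muscle marker CASQ2, a calcium-binding gene, exceeded 10 FPKM in 4 cardiac libraries, 2 of Ross in Fall 12 and 2 of Illinois. The fat cell markers FABP4, PPARG and CAV1 were present in every library, with a summed level of at least 2107 FPKM. In whole tissue, fewer cells of a type and less RNA per cell cannot be told apart.

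Differences between groups were taken from a limma fit of log2(FPKM + 1) over 423 tested genes, all 4 genes among them. A gene was called when its p-value, adjusted by the Benjamini-Hochberg method over all tested genes, was below 0.05. Each difference below is on that log2 scale, with its standard error (SE) or 95% interval.

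CELF1 was low in Ross abdominal fat of Fall 13. It stood at 0.959, 5.57, 0.893 and 0.824 FPKM in these Ross libraries, against 11.2 to 17.7 FPKM with a median of 13.8 in the 7 Illinois abdominal libraries of the same trial. The groups did not overlap, as was so for 10.9% of all tested genes. The mean was 2.06 ± 2.34 FPKM (SD, n = 4) in Ross and 14.6 ± 2.79 FPKM (SD, n = 7) in Illinois, and the mean in Ross was 0.141 times that in Illinois, or 0.0609 times without library 1196. The log2 difference was -2.58 (SE 0.44, 95% interval -3.47 to -1.69), which placed CELF1 at rank 3 from the lowest of 423 genes. The median over all tested genes was -0.15. Of the 4 genes CELF1 was the 1 called in this comparison, in which 15.8% of all tested genes were called. Its difference ran from -3.24 to -1.51 over 11 alternative analyses and from -3.03 to -2.41 when each library was left out, and CELF1 was called in all of these.

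Some marker lists also differed between the same groups, while the sums of the listed smooth muscle, immune and neural markers overlapped. CASQ2 and MYH7B, 2 of 25 listed heart muscle markers, were the only ones among the genes analysed. Their summed level was 0.933 to 9.25 FPKM in Ross abdominal fat of Fall 13 and 0.0189 to 0.276 FPKM in Illinois abdominal fat. Neither was called, with log2 differences of 1.81 (CASQ2) and 1.45 (MYH7B). Whether these levels in abdominal fat came from heart muscle was not tested. The summed level of FABP4, PPARG and CAV1, 3 of 12 listed fat cell markers, was 13960 to 15672 FPKM in Ross and 16655 to 30222 FPKM in Illinois. Nearly all of that sum was FABP4, a fatty acid carrier, with a log2 difference of -0.69 that was not called, while CAV1, a membrane protein, was called lower (-0.97) and PPARG, the regulator of fat cell identity, was not called (0.42). Of the 3 of 15 listed matrix genes, FBN1 (-2.30) and FBN2 (-1.30) were called lower and FBLN1 (-0.25) was not called, and their sum overlapped, at 12.9 to 29.1 FPKM in Ross and 24.2 to 510 FPKM in Illinois. Of the 5 of 13 listed endothelial genes, CDH5 was called lower (-1.06) and 4 were not called, with overlapping sums of 174 to 310.2 FPKM in Ross and 172 to 396 FPKM in Illinois. The part of these differences, and of depth, in the level of CELF1 was not tested.

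Between the trials, CELF1 was lower in Ross abdominal fat of Fall 13. The abdominal libraries of Fall 13 held the 0.824 to 5.57 FPKM given above, against 16.3, 13.6, 5.06 and 3.71 FPKM in those of Fall 12. The highest Fall 13 value, 5.57 FPKM in library 1196, lay above the lower pair of Fall 12, so the groups overlapped. Of all tested genes, 34.8% did not overlap in this comparison. The other Fall 13 values were 0.824 to 0.959 FPKM. The mean was 2.06 ± 2.34 FPKM in Fall 13 and 9.67 ± 6.23 FPKM in Fall 12 (SD, n = 4 each), with a log2 difference of -1.84 (SE 0.49), against a median of -0.30 over all tested genes. CELF1 was called, as were 25.8% of all tested genes.

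In Ross cardiac fat, CELF1 had 16.1, 6.55, 2.61 and 4.58 FPKM in Fall 13 and 18.1, 14.9, 16.4 and 13.9 FPKM in Fall 12. Of the Fall 13 libraries, 3 lay below every Fall 12 library and 1204 lay within their range. The means were 7.46 ± 5.98 FPKM in Fall 13 and 15.8 ± 1.84 FPKM in Fall 12 (SD, n = 4 each). At -1.23 on the log2 scale (95% interval -2.24 to -0.22) it was not called, against 10.4% of tested genes called. Without library 1204 it was -1.65 and called.

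Between the depots, CELF1 was higher in cardiac than in abdominal fat of Ross birds in Fall 13. At a log2 difference of 1.47 (SE 0.49) it was called, and 15.8% of all tested genes were called in this comparison. The call is not firm, since it held in 7 of 12 alternative analyses and in 3 of 8 fits that left out 1 library, where the difference ran from 1.05 to 1.92. It was lost without library 1195, 1197, 1198, 1204 or 1205. In Fall 12 the difference between the Ross depots was 0.86 (95% interval -0.14 to 1.87) and was not called, where 13% of genes were.

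Illinois birds showed a different order, with 11.4 ± 4.09 FPKM of CELF1 in cardiac fat (SD, n = 8) and 14.6 ± 2.79 FPKM in abdominal fat (SD, n = 7). The cardiac values ran from 1.72 over a median of 12.4 to 14.4 FPKM, and without library 1109, the lowest, from 11.02 to 14.4 FPKM. The log2 difference of -0.46 (95% interval -1.20 to 0.28) was not called, where 19.1% of genes were, and it was -0.17 without that library. The depot effect in Ross of Fall 13 minus that in Illinois was 1.93 (95% interval 0.68 to 3.18), at rank 5 from the highest of 423 genes. It was not called, where 3.31% of genes were, but was called in 4 of 12 alternative analyses and without library 1096 or 1196. Between the lines in cardiac fat of Fall 13 the difference was -0.65 (95% interval -1.52 to 0.22) and was not called, where 5.67% of genes were.

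Over all groups, CELF1 lay below 7 FPKM, a cut that was not set in advance, in 10 libraries, of which 9 were of Ross. No Ross cardiac library of Fall 12 was among them, with values of 13.9 to 18.1 FPKM. The order of the group means ran from Ross cardiac fat of Fall 12, over Illinois abdominal, Illinois cardiac, Ross abdominal of Fall 12 and Ross cardiac of Fall 13, to Ross abdominal of Fall 13. Each neighbouring pair in that order overlapped in range.

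**Figure D2:**
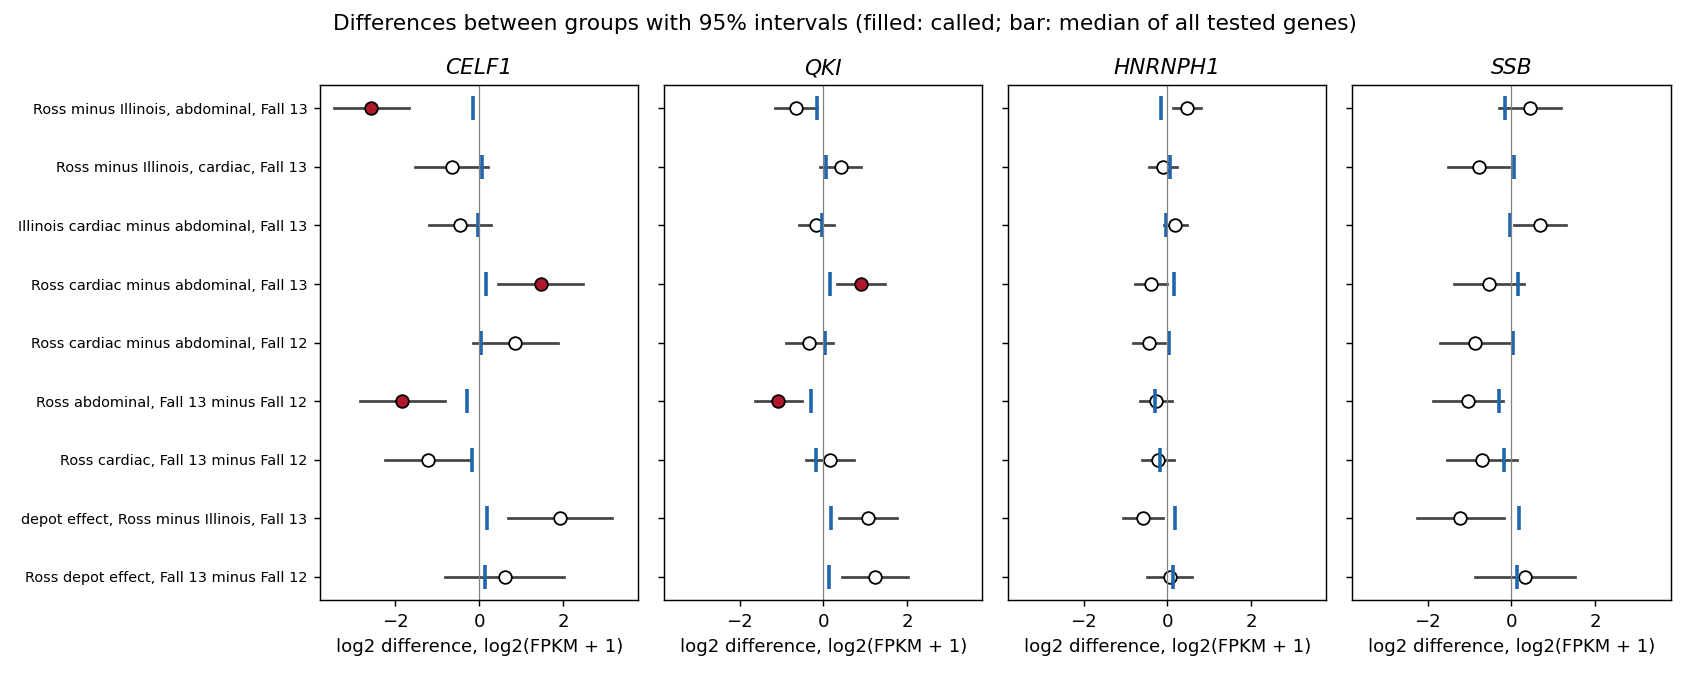
Log2 difference of each gene (points, x axis, on the log2(FPKM + 1) scale) in 9 comparisons (y axis) with its 95% interval, filled red where the gene was called; the blue bar marks the median of all 423 tested genes. CELF1 is called in 3 comparisons and QKI in 2, all of which include Ross abdominal fat of Fall 13, while HNRNPH1 and SSB are called in none. Of all tested genes, 15.8% or 25.8% were called in the comparisons where CELF1 or QKI was, and 1.18% to 19.1% in the others.

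QKI was also low in Ross abdominal fat of Fall 13, but only against other Ross fat was the difference called. It held 20.3, 32.2, 18.2 and 26.0 FPKM in Ross abdominal libraries of Fall 13, against 42.0, 52.3, 45.3 and 66.3 FPKM in those of Fall 12. The groups did not overlap, as was so for 34.8% of all tested genes. The mean was 24.2 ± 6.27 FPKM in Fall 13 and 51.5 ± 10.8 FPKM in Fall 12 (SD, n = 4 each), with a log2 difference of -1.07 (SE 0.28). These were the lowest and the highest of the 6 group means of QKI. The call held in all 10 alternative analyses, with differences from -1.10 to -0.72, and in all 8 fits without 1 library, while the median over all tested genes was -0.30.

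Some markers moved with this trial difference. The matrix genes FBLN1, FBN1 and FBN2, 3 of 15 listed, summed to 12.9 to 29.1 FPKM in Ross abdominal fat of Fall 13. In that of Fall 12 they summed to 42.3 to 395 FPKM. FBN1 (log2 difference -3.69) and FBLN1 (-2.20) were called lower in Fall 13, and FBN2 (0.18) was not called. CALD1, a regulator of contraction and 1 of 7 listed smooth muscle markers, had 44.4 to 64.4 FPKM in Fall 13 and 130 to 196 FPKM in Fall 12. The pair of heart muscle markers summed to 0.933 to 9.25 FPKM in Fall 13 and to 0.00200 to 0.532 FPKM in Fall 12. Neither CASQ2 (1.72) nor MYH7B (1.52) was called. The sums of the listed fat cell, endothelial, immune and neural markers overlapped between these groups. The part of the markers in the levels of QKI and CELF1 was not tested.

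In cardiac fat QKI did not follow the trial. Its values were 52.9, 44.7, 38.6 and 45.2 FPKM in Ross cardiac libraries of Fall 13 and 27.4, 36.1, 48.5 and 53.6 FPKM in those of Fall 12. The Fall 13 values lay within the range of Fall 12, and the log2 difference was 0.16 (95% interval -0.40 to 0.73).

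The depot difference of QKI had a positive sign in Fall 13 and a negative sign in Fall 12. In Fall 13, QKI averaged 45.3 ± 5.84 FPKM in Ross cardiac and 24.2 ± 6.27 FPKM in Ross abdominal fat (SD, n = 4 each), with no overlap, in a comparison where 22.7% of tested genes did not overlap. The log2 difference was 0.90 (SE 0.28) and called. An additive trial term takes 1 Ross depot difference over both trials, which was 0.29 and not called. The call for Fall 13 held in the other 11 of 12 alternative analyses. It held in 5 of 8 fits without 1 library and was lost without library 1195, 1197 or 1204. In that pair of groups the matrix genes summed to 51.3 to 575 FPKM in cardiac and 12.9 to 29.1 FPKM in abdominal fat. FBLN1 (2.76) and FBN1 (2.65) were called higher in cardiac fat, and FBN2 (0.12) was not called. The part of these genes was not tested. In Fall 12 the log2 difference of QKI was -0.33 (95% interval -0.90 to 0.23) and not called. It was 0.01 without the libraries with CASQ2 above 10 FPKM. That fit drops 1208 and 1209 of the 4 Ross cardiac libraries of Fall 12. The Fall 13 depot effect minus that of Fall 12, a contrast added after the values were seen, was 1.24 (95% interval 0.44 to 2.03) and was not called, where 1.18% of genes were.

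In Illinois birds QKI did not separate the depots, with 34.7 ± 9.89 FPKM in cardiac (SD, n = 8) and 39.1 ± 10.8 FPKM in abdominal fat (SD, n = 7). The values ran from 20.4 over a median of 34.0 to 48.0 FPKM in cardiac and from 19.8 over a median of 38.4 to 53.7 FPKM in abdominal fat. The log2 difference was -0.16 (95% interval -0.58 to 0.25). Between the lines in abdominal fat of Fall 13 the difference of QKI was -0.65 (95% interval -1.15 to -0.15) and was not called, though it was called without Illinois library 1094, at -0.80. The depot effect of QKI in Ross minus that in Illinois was 1.07 (95% interval 0.37 to 1.77) and was not called. That held in 11 of 12 alternative analyses, but QKI was called there without Illinois library 1094, 1110 or 1114.

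HNRNPH1 varied least of the 4 genes, and its highest group means were in Ross abdominal fat. It had 203, 262, 218 and 169 FPKM in the Fall 13 libraries and 241, 241, 284 and 257 FPKM in the Fall 12 libraries of Ross abdominal fat. In Ross cardiac fat the values were 179.7, 181, 159 and 129.9 FPKM in Fall 13 and 154, 164, 257 and 191 FPKM in Fall 12. Illinois libraries ran from 123 over a median of 181 to 232 FPKM in cardiac fat and from 134 over a median of 158 to 172 FPKM in abdominal fat.

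HNRNPH1 was called in none of the 9 comparisons as fitted, which called 1.18% to 25.8% of all tested genes each. The nearest was Ross against Illinois abdominal fat of Fall 13, with 213 ± 38.5 FPKM in Ross (SD, n = 4) and 153 ± 16.2 FPKM in Illinois (SD, n = 7). The log2 difference was 0.47 (95% interval 0.13 to 0.81), in the direction opposite to CELF1 in the same libraries. Over 11 alternative analyses it ran from 0.46 to 0.69 and was called in 6, and it was also called without library 1093 or 1198. In cardiac against abdominal fat of Ross birds the differences were -0.39 (95% interval -0.77 to -0.00139) in Fall 13 and -0.44 (95% interval -0.83 to -0.06) in Fall 12, and in Illinois birds 0.19 (95% interval -0.09 to 0.47). After quantile or upper quartile scaling HNRNPH1 was called in the Fall 13 comparison of the Ross depots and in that of the Illinois depots. In Fall 12 it was called without library 1210. With an additive trial term, which takes 1 Ross depot difference over both trials, it was called for the Ross depots. Its depot effect in Ross of Fall 13 minus that in Illinois was -0.58 (95% interval -1.05 to -0.10) and was not called. That held in 9 of 12 alternative analyses, but not with either scaling or the additive term. The direction between the trials in Ross abdominal fat depended on the scaling, with -0.28 as fitted and 0.26 after quantile normalization, which moved the median of all tested genes from -0.30 to 0.02.

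SSB was highest in Ross abdominal fat of Fall 12. It was called in none of the 9 comparisons, which called 1.18% to 25.8% of all tested genes each. It had 32.1, 34.5, 36.9 and 21.9 FPKM in Ross abdominal libraries of Fall 13 and 100.2, 56.6, 62.3 and 47.8 FPKM in those of Fall 12. The groups did not overlap, in a comparison where 34.8% of tested genes did not, and library 1199 of Fall 12 held the highest value of all 31 libraries. The mean was 31.3 ± 6.59 FPKM in Fall 13 and 66.7 ± 23.1 FPKM in Fall 12 (SD, n = 4 each). The log2 difference of -1.04 (95% interval -1.88 to -0.20) was close to that of QKI, but its SE of 0.41 was larger, and it was called in 2 of 10 alternative analyses.

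In Ross cardiac fat SSB had 29.2, 29.2, 8.76 and 25.5 FPKM in Fall 13 and 41.7, 27.3, 40.9 and 31.8 FPKM in Fall 12. Library 1206, the lowest of Fall 13 for SSB, was also the lowest of its group for CELF1 and QKI. Between the Ross depots in Fall 12, SSB was lower in cardiac fat with no overlap, at 35.4 ± 7.04 FPKM in cardiac and 66.7 ± 23.1 FPKM in abdominal fat (SD, n = 4 each). The log2 difference there was -0.86 (95% interval -1.70 to -0.02), in a comparison where 20.8% of tested genes did not overlap. CALD1 also did not overlap there, with 38.1 to 106 FPKM in cardiac and 130 to 196 FPKM in abdominal fat. Nor did CHRNA3, 1 of 13 listed neural markers, with 2.30 to 10.9 FPKM in cardiac and 0.001 to 0.276 FPKM in abdominal fat. The part of CALD1 and CHRNA3 was not tested. In Fall 13 the Ross depot difference of SSB was -0.53 (95% interval -1.37 to 0.31).

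In Illinois fat the mean of SSB ran the other way, with 39.8 ± 16.7 FPKM in cardiac (SD, n = 8) and 24.6 ± 10.1 FPKM in abdominal fat (SD, n = 7). The cardiac values ran from 16.7 over a median of 34.5 to 62.6 FPKM and the abdominal values from 8.39 over a median of 25.1 to 36.1 FPKM, and the groups overlapped. At a log2 difference of 0.69 (95% interval 0.07 to 1.30) SSB was not called, though it was called in 3 of 12 alternative analyses and without library 1107. The depot effect of SSB in Ross minus that in Illinois was -1.22 (95% interval -2.26 to -0.18) and was not called, though it was called with an additive trial term. Between the lines in cardiac fat of Fall 13 the difference of SSB was -0.77 (95% interval -1.50 to -0.05) and was not called.

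The signs of the 4 differences varied between comparisons. In Ross against Illinois abdominal fat of Fall 13, CELF1 and QKI had negative and HNRNPH1 and SSB positive differences. In Ross abdominal fat of Fall 13 against Fall 12 all 4 differences were negative, with a median of -1.05 against -0.30 over all tested genes, and 2 of the 4 were called, where 25.8% of all tested genes were. After quantile normalization the difference of HNRNPH1 was 0.26. These comparisons share the 4 Ross abdominal libraries of Fall 13 and are not independent of each other.

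Over the 31 libraries, Pearson's r of log2(FPKM + 1) was 0.62 between HNRNPH1 and SSB and 0.42 between CELF1 and QKI. The other 4 pairs had values from -0.12 (CELF1 and HNRNPH1) to 0.28 (QKI and HNRNPH1). After the mean of each group was taken off, all 6 pairs were positive, from 0.20 for CELF1 and SSB to 0.48 for QKI and HNRNPH1, with 0.37 for HNRNPH1 and SSB, 0.34 for CELF1 and HNRNPH1 and 0.28 for CELF1 and QKI. These are descriptions, since the points share libraries, the scaling to a library total and the groups.

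**Figure D3:**
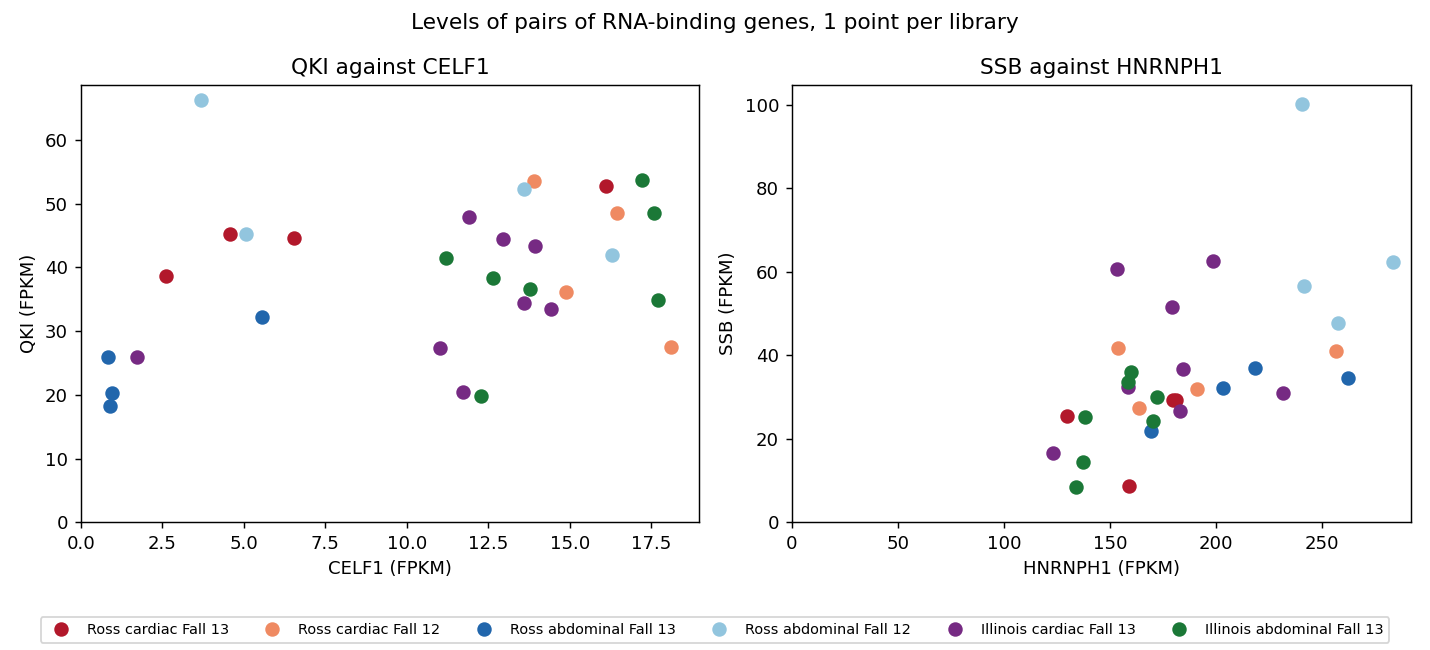
FPKM of QKI against CELF1 (left) and of SSB against HNRNPH1 (right), 1 point per library and colours for the 6 groups. The 4 Ross abdominal libraries of Fall 13 lie at 0.824 to 5.57 FPKM of CELF1 and at 18.2 to 32.2 FPKM of QKI. The other libraries reach down to 1.72 FPKM of CELF1 and 19.8 FPKM of QKI, so the ranges overlap in part. For HNRNPH1 and SSB the 4 libraries lie within the range of the other libraries.

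For each gene the 3 tested genes with the most similar pattern over the 31 libraries were found by Pearson's r of log2(FPKM + 1). For CELF1 these were LMBR1 (r = 0.71), HDAC4 (0.63) and ARVCF (0.62), and after removal of group means the values were 0.36, 0.33 and 0.38. For QKI they were CREB1 (0.67), CLOCK (0.62) and EIF4A2 (0.61), with 0.47, 0.70 and 0.48 after removal of group means. For HNRNPH1 they were RNF111 (0.78), TRMT11 (0.75) and CALD1 (0.74), with 0.73, 0.67 and 0.63. For SSB they were STX2 (0.82), JAK2 (0.75) and ROCK2 (0.72), with 0.75, 0.64 and 0.57. The similarity of CELF1 to its 3 genes thus lay more in the group means than that of HNRNPH1 or SSB. The median r of each of the 4 genes with all tested genes was 0.12 to 0.16.

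A list of 201 RNA-binding and splicing genes was compared with the table, and 10 were found, the 4 genes above and 6 others. DAZL, a germ cell gene, was listed at the floor in 27 libraries and was not tested. The other 5 were CELF2, a splicing regulator related to CELF1, KHDRBS1, a KH domain protein that regulates splicing, MATR3, a protein of the nuclear matrix, YBX1, a protein that packages mRNA, and ADARB1, which edits adenosine in double-stranded RNA. In Ross against Illinois abdominal fat of Fall 13, 0 of these 5 were called by limma, where 15.8% of all tested genes were (2 of the 5 had an unadjusted p below 0.05), with a median log2 difference of -0.22 against -0.15 over all tested genes. CELF2 had -0.28 (SE 0.67) there, with 2.91 ± 1.49 FPKM in Ross (SD, n = 4) and 3.73 ± 1.54 FPKM in Illinois (SD, n = 7).

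In Ross abdominal fat of Fall 13 against Fall 12, 0 of the 5 were called by limma, where 25.8% of all tested genes were (2 of the 5 had an unadjusted p below 0.05), with a median of -0.52 against -0.30 over all tested genes. The log2 differences were -0.52 for MATR3, -0.55 for YBX1 and -1.42 for CELF2.

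In Illinois cardiac against abdominal fat, 1 of the 5 rose, 1 fell and 3 were not called, where 19.1% of all tested genes were called. CELF2, with a log2 difference of 0.99 (SE 0.55), was not called, but its value in cardiac library 1108 was the floor. Its other cardiac values ran from 6.85 to 25.6 FPKM and the abdominal values from 1.91 to 6.27 FPKM. With the floor entry the groups overlapped, in a comparison where 6.15% of all tested genes did not. The CELF2 difference without library 1108 was not tested. KHDRBS1 averaged 20.1 ± 5.86 FPKM in cardiac fat (SD, n = 8), with a log2 difference of 1.18 (limma adjusted p = 0.0316), while abdominal values ran from 0.001 over a median of 12.7 to 17.6 FPKM. The lowest of these was the floor in library 1092, and without it the difference was 0.66 and still called, but the call was lost without library 1096, 1108, 1111, 1113 or 1114, with log2(FPKM + 0.1) and in a fit of the compared groups alone. ADARB1 averaged 9.95 ± 5.53 FPKM in cardiac (SD, n = 8) and 17.6 ± 3.87 FPKM in abdominal fat (SD, n = 7), with a log2 difference of -0.88 (limma adjusted p = 0.0189). Over 12 alternative analyses it ran from -0.96 to -0.65, and at -0.65, without the 4 libraries with CASQ2 above 10 FPKM, it was not called. The summed level of FABP4, PPARG and CAV1 was 2107 to 15498 FPKM in cardiac and 16655 to 30222 FPKM in abdominal fat of Illinois birds. MYH7B (log2 difference 2.98), FBLN1 (2.94) and CHRNA3 (1.34) were called higher in cardiac fat. The endothelial genes CLDN5 (-1.86), CDH5 (-1.08) and FLT1 (-0.82) and the matrix gene FBN2 (-0.94) were called lower. CASQ2, FBN1, ERG, SOX18, CALD1, PTPRC and IGJ were not called. The part of these markers was not tested. In the comparison of the Ross depots, in either trial, and in that of the lines in cardiac fat, 0 of the 5 genes were called by limma, and 0 had an unadjusted p below 0.05. Each of these comparisons held a cardiac floor entry of CELF2. Besides library 1205, the Ross cardiac values of Fall 13 were 5.76 to 10.02 FPKM, against 1.58 to 5.05 FPKM in abdominal fat. With that library the groups overlapped, in a comparison where 22.7% of all tested genes did not. Besides library 1210, those of Fall 12 were 5.21 to 10.2 FPKM, against 7.80 to 12.2 FPKM in abdominal fat. Of all tested genes, 15.8% were called for the Ross depots in Fall 13, 13% in Fall 12 and 5.67% for the lines in cardiac fat.

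**Figure D4:**
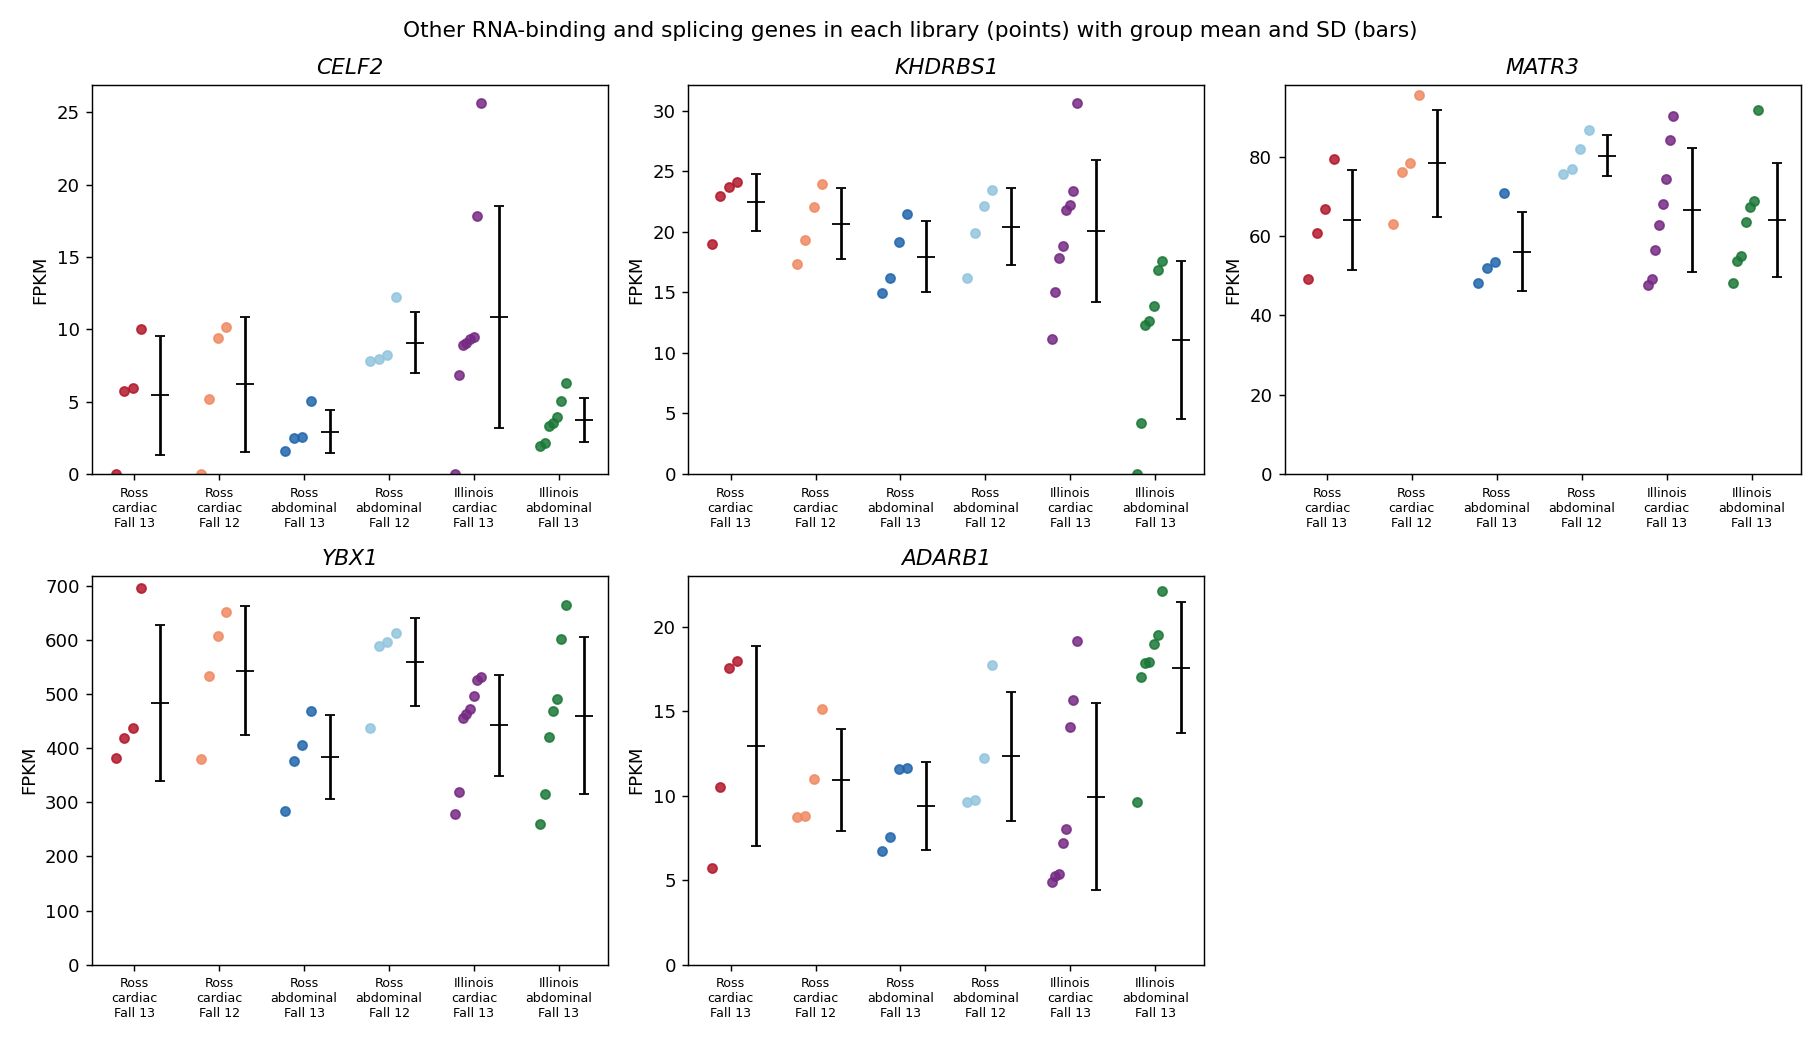
FPKM (y axes, linear from 0) of 5 further RNA-binding and splicing genes in each library (points, ordered by value within a group) of the 6 groups (x axis), with the group mean and SD as a bar. On average KHDRBS1 is lowest and ADARB1 highest in Illinois abdominal fat.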

How the data were processed

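The authors deposited 1 value per gene and library, taken here as FPKM because the submitters' processing notes name Bowtie, TopHat and Cufflinks and the values fit that unit. The file headers name no unit, and no source used here gives versions, build or annotation. FPKM scales a library to its own total, so 1 abundant gene moves all others. The table ended within a line. Of 566 complete lines, 2 were exact duplicates, which left 564 genes in Entrez order. Genes beyond were not analysed here.

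Values were analysed as log2(FPKM + 1), which understates changes of low genes, in R 4.3.3 with limma 3.58.1 and statmod 1.5.0. A gene was tested where 7 or more libraries held 1 FPKM or more, which 423 genes met. The model held 6 group means over 31 libraries, with variances moderated robustly along a trend in mean level. Tests were two-sided, with Benjamini-Hochberg adjustment per comparison. The steps were tested on simulated data.

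The members and gene lists were chosen with earlier results of these data known. The naming rule covered the members, called list genes, the 3 most similar genes, and CASQ2 and FABP4 as markers. Other listed markers, and list genes that were not called, were named outside that rule. An item of the gene lists is not reported here. Total depth is unknown. Relative depths came from steps between low values, where 80.5% of 1163 values in 71 genes fell within 0.05 of a whole number. Alternatives covered the pseudocount, filter, scaling, model, samples, moderation, libraries with a muscle signal, each library and a block by header number.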

Additional observations from a re-analysis of the deposited data

Results flagged for a closer look

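In each of 24 sets of values (4 genes in 6 groups) the lowest and highest library were compared with the others by Dixon's ratio of the gap to the range, at the 95% level. Since the genes were chosen with these values known, the result is a description. A value stood apart in 2 sets, where chance gives about 1 set in 20. CELF1 was at 5.57 FPKM in library 1196 of Ross abdominal fat of Fall 13, while the other 3 libraries held 0.824 to 0.959 FPKM. CELF1 was at 1.72 FPKM in library 1109 of Illinois cardiac fat, while the other 7 libraries held 11.02 to 14.4 FPKM. CASQ2 was 5.10 FPKM in library 1196, the highest of its group, and 0.234 FPKM in library 1109. The relative depth was 1.00 in library 1196, the highest of its group, and 0.979 in library 1109, the lowest of its group. The part of CASQ2-expressing tissue and of depth in these values was not tested.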

How the results depend on the processing

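Of the 36 differences of the 4 genes, the 5 that were called kept their sign under each alternative run. Counts of genes called moved by over 1.5 times as follows. Ross against Illinois abdominal fat gave 67 genes, and 43 with log2(FPKM + 5). The lines in cardiac fat gave 24, and 1 in a fit of the compared groups alone. The Ross depots gave 67 in Fall 13, and 120 with an additive trial term. That term takes 1 Ross depot difference over both trials, so its counts here and below are not for Fall 13 alone. The Ross depots gave 55 in Fall 12, against 35 with the compared groups alone and 21 without the libraries with CASQ2 above 10 FPKM. That last fit drops 1208 and 1209 of the 4 Ross cardiac libraries of Fall 12. Ross cardiac fat of Fall 13 against Fall 12 gave 44, against 18 with a minimum of 5 FPKM and 13 with the compared groups alone. The difference of depot effects between the lines gave 14, against 27 with log2(FPKM + 0.1), 28 with the minimum of 5 FPKM, 6 with the compared groups alone and 46 with the additive term. The Ross depot effect between trials gave 5, against 0 with log2(FPKM + 5), 15 with no filter and 2 after quantile normalization. Where limma called 0, 53 genes had an unadjusted p below 0.05.

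Leaving out 1 library gave 32 (without 1196) to 67 genes for the lines in abdominal fat, 8 (without 1205) to 29 in cardiac fat, 67 to 84 for the Illinois depots, and 43 (without 1206) to 74 and 38 to 62 for the Ross depots of Fall 13 and Fall 12. For the trials it gave 85 to 109 in abdominal and 26 (without 1205) to 45 in cardiac fat, and for the differences of depot effects 7 (without 1198) to 33 (without 1096) between lines and 0 (without 1196 or 1200, with 50 and 46 genes at an unadjusted p below 0.05) to 10 between trials.

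The split of higher and lower calls moved with the scaling. After quantile normalization it was 29 and 38, against 14 and 53 as fitted, for the lines in abdominal fat, and 20 and 13 against 19 and 5 in cardiac fat. It was 35 and 39 against 51 and 16 for the Ross depots in Fall 13, 27 and 33 against 35 and 20 in Fall 12, 38 and 52 against 14 and 95 for the trials in abdominal fat, and 18 and 20 against 3 and 41 in cardiac fat. With equal upper quartiles it was 53 and 43 against 34 and 47 for the Illinois depots. The median of all genes between the trials in abdominal fat was then 0.01, against -0.30 as fitted.

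Headers give a second number to 15 pairs of 1 cardiac and 1 abdominal library. Both libraries of a pair were of the same line and trial. Deviations of paired libraries correlated above 0.1 in 9 of 15 pairs (-0.109 to 0.460). In 8 of 15 the cardiac library correlated best with its own number, among the 4 or 7 abdominal libraries of that group. No label says what the number marks and 6 pairs stayed at or below 0.1, so this is a hint of a pairing from the data and not part of the design. The block, and the CELF1 ratio without library 1196, were added after the data were seen. A replicate block by that number gave 36 genes (estimated correlation of 0.162) or 27 (fixed block) for the difference of depot effects between lines. With the estimated block CELF1 and QKI were called there, and HNRNPH1 between the lines in abdominal fat. With the fixed block SSB was called and KHDRBS1 was not in the Illinois depots. The causes of these changes were not tested. Total depth is unknown, which limits statements on genes near the floor.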

Other observations

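CELF2, the relative of CELF1, was listed at the floor of 0.001 FPKM in 3 cardiac libraries, 1 each of Ross in Fall 13, Ross in Fall 12 and Illinois. The highest values in the same groups were 10.02, 10.2 and 25.6 FPKM. KHDRBS1 was listed at the floor in 1 Illinois abdominal library while the median of that group was 12.7 FPKM. A listed floor beside such values may be an estimate that could not be made, so these entries are given as listed and not as absence of the transcript.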
